A study of Mus musculus with 42 samples.

Results

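Sites common to HOXC6, HOXC9 and HOXC10 are places in the mouse genome where all 3 induced Hox transcription factors had a binding event in differentiating motor neurons at day 3. They were chosen from the 10000 HOXC9 events of highest ChIP read count on chromosomes 1 to 19 and X, keeping those with a HOXC6 event and a HOXC10 event of any strength within 100 bp. The rule found 3809 sites, or 38.1% of the 10000 and 5.14% of the full HOXC9 list (74067 events on these chromosomes). A HOXC6 event was near 44.3% of the 10000 and a HOXC10 event near 66.1%. The presence of the HOXC6 and HOXC10 events and the HOXC9 read count chose the sites, so these values describe them and support nothing. Of the other 6191 top HOXC9 events, 2797 had a HOXC10 but no HOXC6 event, 619 had a HOXC6 but no HOXC10 event and 2775 had neither.

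The cells were mouse embryonic stem cells of the Ainv15 background, grown as embryoid bodies (EBs) and turned towards spinal motor neurons with all-trans retinoic acid (RA) and the smoothened agonist SAG from day 0. Each line carries 1 tagged Hox gene that is switched on by doxycycline (Dox), so every group studies an induced factor above the cells' own Hox genes. Day 3 lines induced for 24 h carried Flag-tagged Hoxa9, Hoxd9, Hoxc6, Hoxc8, Hoxc9, Hoxc10 or Hoxc13, or 1 of 4 Flag-tagged chimeras that join the N-terminal part of one of HOXC13 and HOXC10 to the homeodomain and C-terminus of the other (HOXC13:C10.1, HOXC13:C10.2, HOXC10:C13.1 and HOXC10:C13.2). Day 4 samples, after 48 h of Dox, exist for Hoxc6, Hoxc9 and Hoxc10. Hoxc6 and Hoxc9 were assayed in EBs given 12 h of Dox whose labels name neither RA nor SAG. The cofactor MEIS was assayed at day 3 in V5-tagged iHoxc6, iHoxc9 and iHoxc10 lines, 1 library each. HA-tagged lines gave the second HOXA9, HOXD9 and HOXC13 libraries, and a V5-tagged line with another antibody gave 1 of 3 day 3 HOXC10 libraries.

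Hox factors specify positions along the body axis, and in the spinal cord they divide motor neurons into columns and pools. HOXC6 and HOXC8 belong to the central paralogs, and the HOX9, HOX10 and HOX13 groups to the posterior ones. All bind short AT-rich sequences, with TAAT as the core of anterior and central factors and TTTAT as that of posterior factors. The homeodomain proteins PBX and MEIS bind DNA beside many Hox factors, and PBX with a Hox factor occupies a composite element of the form TGATNNAT.

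The event lists pool the libraries of a group (1 to 4 per list), and no file gives a count per library at each site. A site therefore has 1 value per group and no spread between differentiations. The libraries held 5.04 to 32.9 M aligned reads each, of which events took a fraction of 0.008 to 0.527. Among the day 3 HOXC10 libraries these were 5.04 to 21.8 M reads and 0.017 to 0.161. The HOXC6 list was the shortest of the day 3 Hox lists, at 17898 events, and the HOXC13 list the longest, at 115819. Differences of shares are given in percentage points with 95% intervals by Newcombe's method from Wilson score intervals, and a difference was called when its interval left out 0. These intervals cover the counting of sites only, not variation between cultures. Site values are estimated ChIP read counts, which are not scaled between lists, so sites were compared within a list or by presence of an event.

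To show what the sites look like, 4 of the 8 with the smallest summed rank in the HOXC6, HOXC9 and HOXC10 lists are printed, as the plus strand of build GRCm38 (identical to mm10) for 50 bp to each side of the HOXC9 event. Capitals mark TAAT, TTTAT and TGATNNAT on either strand. Between genes, 36869 bp from the nearest protein-coding transcription start site (TSS), that of Pter, lay chr2:12887122-12887222. A site 38235 bp from the TSS of Olig2, which encodes the bHLH factor of motor neuron progenitors, was between genes at chr16:91187172-91187272. In an intron of Hoxc5, 845 bp from a TSS, lay chr15:103014610-103014710. The last, chr14:16733651-16733751, was in an intron of Rarb, a retinoic acid receptor gene, 85304 bp from the nearest TSS.
Pter site: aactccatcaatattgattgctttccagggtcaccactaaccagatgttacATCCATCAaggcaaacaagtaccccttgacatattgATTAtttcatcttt
Olig2 site: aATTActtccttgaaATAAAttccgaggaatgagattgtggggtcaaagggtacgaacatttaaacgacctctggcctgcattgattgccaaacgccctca
Hoxc5 site: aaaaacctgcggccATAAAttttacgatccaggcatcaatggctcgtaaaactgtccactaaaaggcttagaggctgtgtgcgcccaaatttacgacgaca
Rarb site: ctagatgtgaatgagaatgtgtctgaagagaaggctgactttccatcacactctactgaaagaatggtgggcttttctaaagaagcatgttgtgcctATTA

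The strongest sites carried few copies of these cores. The Pter site had 1 composite PBX-Hox element and 1 TAAT, the Olig2 site 1 TAAT and 1 TTTAT, the Hoxc5 site 1 TTTAT and the Rarb site 1 TAAT at the edge of the window. At the Olig2 site the estimated ChIP counts at day 3 were 1107 (HOXC6), 2743 (HOXC8), 3389 (HOXC9), 1217 (HOXC10), 2414 (HOXA9) and 1458 (HOXD9), with no HOXC13 event. At the Rarb site HOXC6 had 1572 reads, HOXC8 3070, HOXC9 3513, HOXC10 683, HOXA9 1922, HOXD9 793 and HOXC13 198. The 2 sites thus differed in HOXC13, and also in EBs, where the Rarb site had 1477 HOXC6 and 2995 HOXC9 reads and the Olig2 site no event.

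Others of these sites were nearest to Slc25a26 and Hdx. The highest HOXC9 count of all events, 6196, was at the Slc25a26 site between genes on chromosome 6, which also had events of all 16 Hox groups. The site 34 bp from the TSS of Hdx, a homeobox gene, held none of the 3 motifs within 50 bp and no MEIS event in any line. The Hdx site had 835 HOXC6, 1788 HOXC8, 2327 HOXC9 and 1407 HOXC10 reads at day 3.

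At the edge of the rule the values ran on without a gap. The last HOXC9 event inside the top 10000 had a ChIP count of 316.4, as had 2 events outside, and the next had 316.2. Common sites ranged from 316.5 to 6196 HOXC9 reads. For 479 of the top events the farther of the nearest HOXC6 and HOXC10 events lay over 50 and up to 100 bp away, and for 256 it lay over 100 and up to 150 bp away. At 2558 sites (67.2%) the authors' caller placed all 3 events on the same base. Of the matched HOXC8 events 4.77% were on the base of the HOXC9 event, and of the matched day 4 HOXC9 events 4.08%. Coincidence to the base thus differed between lists, also for HOXC9 itself, and its cause was not tested.

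Nearly all sites were also bound by the other central and 9-group factors. A HOXC8 event lay within 100 bp of 3772 sites (99.0%) against 52.9% of the other top HOXC9 events and 70.5% of all 10000, a difference of 46.1 points (44.8 to 47.4). For HOXA9 the share was 99.45% of the common sites, 86.4% of the other events and 91.3% of all, a difference of 13.08 points (12.2 to 13.98), which was 45.6 points (43.9 to 47.3) with the HOXA9 list cut to its top 10000 events. For HOXD9 it was 96.7%, 55.1% and 71%, a difference of 41.6 points (40.2 to 42.9). All 6 full-length factors other than HOXC13 had an event at 3640 of the 3809 sites (95.6%).

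The classes of other events separated these factors. HOXC8 was nearly as frequent where HOXC6 was present without HOXC10 (97.6%, 1.45 points below the common sites, 0.435 to 3.01) and less so where HOXC10 was present without HOXC6 (59.8%, 39.2 points below, 37.4 to 41.1). HOXA9 and HOXD9 went the other way. HOXD9 had an event at 83.7% of sites with HOXC10 and no HOXC6, and at 57.2% of sites with HOXC6 and no HOXC10, which were 12.96 (11.5 to 14.5) and 39.5 (35.6 to 43.5) points below the common sites. The HOXA9, HOXD9 and HOXC13 lists were called against the same control library as those of HOXC6, HOXC9 and HOXC10, at positions that often coincide to the base, and the part of this in the shares was not tested.

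HOXC13 was less frequent at the common sites than at the other events, unlike HOXC8, HOXA9 and HOXD9. Although its list was the longest at day 3, it had an event at 2009 of the common sites (52.7%) and at 60.0% of the other top HOXC9 events, with 57.2% of all, a difference of -7.25 points (-9.25 to -5.25). The deficit was present in each quartile of HOXC9 read count, from -14.5 points (-18.7 to -10.1) in the weakest to -6.50 points (-10.1 to -2.92) in the strongest. With events matched within 50 bp it was -2.63 points (-4.70 to -0.546). Relative to single classes, HOXC13 was 10.3 points (7.92 to 12.7) less frequent at the common sites than at sites with HOXC10 and no HOXC6, and 7.51 points (3.26 to 11.7) more frequent than at sites with HOXC6 and no HOXC10.

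The chimeras with the HOXC10 homeodomain bound nearly every common site. HOXC13:C10.1 had an event at 98.8% of them and at 96.3% of the other events, with 97.3% of all, a difference of 2.43 points (1.84 to 3.02). HOXC13:C10.2 had one at 99.8% against 94.1%, with 96.3% of all, a difference of 5.65 points (5.06 to 6.28) that became 39.4 points (37.6 to 41.1) when its list was cut to its top 10000 events. The chimeras with the HOXC13 homeodomain had an event less often, in lists of lower signal fraction. The fractions were 0.134 to 0.155 for HOXC10:C13.1 and 0.184 to 0.201 for HOXC10:C13.2. They were 0.335 to 0.527 for HOXC13:C10.1 and 0.32 to 0.392 for HOXC13:C10.2. The part of this in the shares was not tested. HOXC10:C13.1 had an event at 39.9% of the common sites, against 29.3% of the other events and 33.3% of all, and HOXC10:C13.2 at 46.3%, against 40.0% and 42.4%. In the 3 weaker quartiles of HOXC9 read count the interval of the HOXC10:C13.2 difference included 0 (0.701 points, -3.39 to 4.92, in the weakest). Against sites with HOXC10 and no HOXC6, the HOXC10:C13.1 difference was 1.53 points (-0.858 to 3.90) and that of HOXC10:C13.2 -0.837 points (-3.27 to 1.60). Neither was called. Against the same class HOXC13:C10.1 differed by 1.805 points (1.10 to 2.57) and HOXC13:C10.2 by 0.469 points (0.151 to 0.862).

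**Figure D1:**
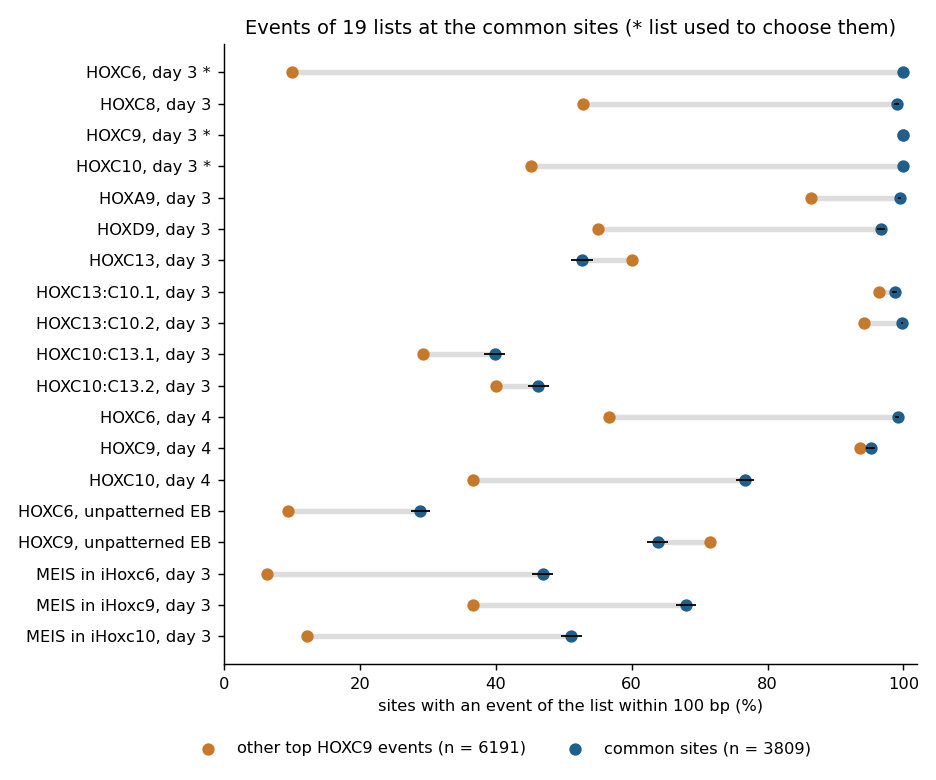
Share of sites with an event of each list within 100 bp (x axis, percent) for 19 lists (y axis). Blue points are the 3809 common sites with 95% Wilson intervals as black bars, and orange points the other 6191 top HOXC9 events. HOXC13 at day 3 and HOXC9 in EBs are the lists in which the orange point lies above the blue one.

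Strength was read against each list as a whole, since counts are not scaled between lists. It was not read at the other top HOXC9 events, so these values describe the common sites without that baseline. Where a HOXC8 event was present, its median estimated ChIP count was 315 (quartiles 188 and 560), against a median of 73.7 over the whole HOXC8 list, and 84.99% of these events ranked in the upper 25% of that list. The median was 374 for HOXA9 (79.9 over its list), 254 for HOXD9 (76.2) and 171 for HOXC13 (80.8). For HOXC9, HOXC10 and HOXC6, whose lists chose the sites, the medians were 605, 202 and 127. Of the HOXC10:C13.1 and HOXC10:C13.2 events, 30.2% and 30.2% ranked in the upper 25% of their own lists, with medians of 85.8 and 86.5 reads against 75.8 and 75.9.

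A matched event in the top 1000 of its list was found at 736 common sites for HOXC8, 796 for HOXA9, 800 for HOXD9 and 91 for HOXC13. In the lists that chose the sites the counts were 684 for HOXC6, 615 for HOXC9 and 784 for HOXC10, and 140 sites were in all 3. These are counts of sites, and close sites may share 1 event. The other top HOXC9 events were not counted in this way, so whether the counts are particular to the common sites was not tested. Of the 140 sites in the top 1000 of HOXC6, HOXC9 and HOXC10, 118 were in the top 1000 of HOXC8, 123 in that of HOXA9, 118 in that of HOXD9 and 19 in that of HOXC13, although 73.6% of the 140 had some HOXC13 event. Across the sites with both events, the HOXC9 read count correlated with that of HOXA9 at a Spearman rho of 0.495 (n = 3788 sites), with that of HOXC10 at 0.330 (n = 3809), HOXC8 at 0.324 (n = 3772), HOXD9 at 0.286 (n = 3683), HOXC13 at 0.252 (n = 2009) and HOXC6 at 0.250 (n = 3809). By this measure HOXC13 was near HOXC6, whose list chose the sites. It was below HOXA9, HOXC8 and HOXD9, whose lists did not, and rested on fewer sites. These correlations are descriptions across sites of pooled lists, and their points share libraries and base composition.

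**Figure D2:**
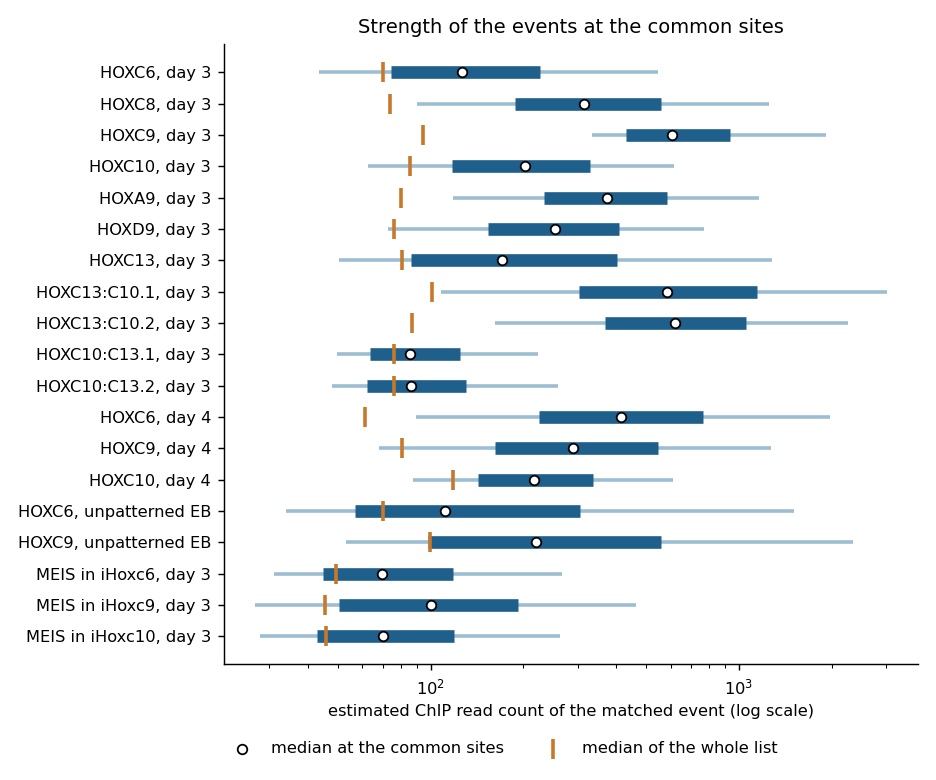
Estimated ChIP read count of the matched event (x axis, log scale) at the common sites in 19 lists (y axis). White points are medians, thick bars the range from the lower to the upper quartile, thin lines the 5th to 95th percentile, and orange ticks the median of the whole list, which lies left of the thin line for HOXC8 (73.7 against a site median of 315) and close to the site median for HOXC10:C13.1 (75.8 against 85.8).

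One day later, most sites were still bound. At day 4 the HOXC6, HOXC9 and HOXC10 lists all had an event at 2844 sites (74.7%), and 8 sites had none of the 3. HOXC6 was present at 99.1% of the common sites (56.7% of the other events, 72.9% of all), HOXC9 at 95.25% (93.6% and 94.2%) and HOXC10 at 76.7% (36.6% and 51.9%). The differences came to 42.4 points (41.1 to 43.7) for HOXC6 and 40.1 points (38.2 to 41.8) for HOXC10. Most of the other events lacked the same factor at day 3 by the rule. Against sites with HOXC6 and no HOXC10 the day 4 HOXC6 difference was 1.40 points (0.421 to 2.91), and against sites with HOXC10 and no HOXC6 the day 4 HOXC10 difference was 11.2 points (8.97 to 13.4). The day 4 HOXC9 difference was 1.69 points (0.763 to 2.59) and depended on the setting. It was 0.0389 points (-0.775 to 0.853, not called) within quartiles of day 3 HOXC9 read count, 4.98 points with events matched within 50 bp and 9.54 points (7.62 to 11.4) with the day 4 list cut to its top 10000 events. The most frequent loss was that of HOXC10 alone, at 759 sites (19.9%). The day 4 HOXC10 list was also the shortest of the 3, with 22024 events and signal fractions of 0.047 to 0.056.

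In EBs the shares of HOXC9 and HOXC6 differed from the other events as a whole in opposite directions. HOXC9 had an event at 2433 sites (63.9%), against 71.5% of the other top HOXC9 events and 68.6% of all, a difference of -7.62 points (-9.51 to -5.72). Its EB list was the longest of the series, with 128322 events, and cut to its top 10000 events the difference was -1.56 points (-3.06 to -0.0283), while within quartiles of day 3 HOXC9 read count it was -11.5 points. HOXC6 had an event at 28.9% of the common sites, 9.39% of the other events and 16.8% of all, a difference of 19.6 points (17.9 to 21.2). Most of the other events lacked HOXC6 at day 3 by the rule. Against sites with HOXC6 and no HOXC10 the EB HOXC6 difference was 8.09 points (4.43 to 11.4). Against the same class the EB HOXC9 difference was 2.32 points (-1.73 to 6.50, not called), so the opposite directions did not hold there. Both factors were present at 1025 sites (26.9%), HOXC9 alone at 1408, HOXC6 alone at 77 and neither at 1299 (34.1%). The EB lists have a control library of their own, and the age of the cells, the hours of Dox and the patterning signals cannot be told apart.

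HOXC13 events in neurons were more frequent at the sites that HOXC9 bound in EBs. A HOXC13 event was present at 62.6% of the common sites with an EB HOXC9 event and at 35.6% of those with no Hox event in EBs, a difference of 26.99 points (23.7 to 30.2). The sites with an EB HOXC9 event also had more HOXC9 reads at day 3 (median 691 against 506). Within quartiles of that count the difference was 24.29 points (20.58 to 28).

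MEIS events were more frequent at the common sites than in each of the 3 other classes, in each line. An event was present at 46.9% of them in iHoxc6 cells, 68.0% in iHoxc9 cells and 51.1% in iHoxc10 cells. Among the other top HOXC9 events the shares were 6.40%, 36.6% and 12.2%, and among all 10000 they were 21.8%, 48.6% and 27%. The differences were 40.5 (38.8 to 42.2), 31.4 (29.5 to 33.3) and 38.9 (37.1 to 40.7) points. Against sites with HOXC6 and no HOXC10 the difference in iHoxc6 cells was 28.2 points (24.55 to 31.5). Against sites with HOXC10 and no HOXC6 the difference in iHoxc10 cells was 30.1 points (27.9 to 32.3). In iHoxc9 cells MEIS was present at 53.9% of sites with HOXC10 and no HOXC6, 30.4% of sites with HOXC6 and no HOXC10 and 20.6% of sites with neither, which were 14.1 (11.7 to 16.4), 37.6 (33.6 to 41.4) and 47.4 (45.3 to 49.5) points below the common sites. Each MEIS library had a different signal fraction (0.077, 0.238 and 0.119 in the 3 lines), so no share is compared between lines.

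All 3 lines had a MEIS event at 1457 common sites (38.3%), against 282 of the other events (4.55%) and 17.4% of all top HOXC9 events. No line had one at 1041 common sites (27.3%) and at 62.4% of the other events. MEIS in iHoxc9 cells alone went the other way, at 544 common sites (14.3%) and 23.8% of the others. It was in iHoxc6 cells alone at 81 (2.13% against 0.582%) and in iHoxc10 cells alone at 43 (1.13% against 0.258%). The sites with MEIS in all 3 lines kept HOXC10 at day 4 in 92.3% of cases and those with no MEIS in 51.5%, a difference of 40.8 points (37.5 to 44.1), or 38.9 points (35.4 to 42.4) within quartiles of HOXC9 read count. HOXC13 was present at 52.9% and 52.8% of the 2 sets, a difference of 0.0145 points (-3.95 to 3.98), but within those quartiles it was -4.59 points (-8.57 to -0.604) and was called. The day 3 HOXC10 read count was not held equal between the 2 sets. Median counts of other factors were higher at the sites with MEIS in all 3 lines. They were 501 against 254 for HOXA9, 373 against 156.5 for HOXD9 and 405 against 266 for HOXC8.

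The day 4 PBX lists, of 1 weak library each, had an event at 19 (iHoxc9) and 7 (iHoxc10) common sites, against 0.28% and 0.08% of all top HOXC9 events, and enter no comparison.

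**Figure D3:**
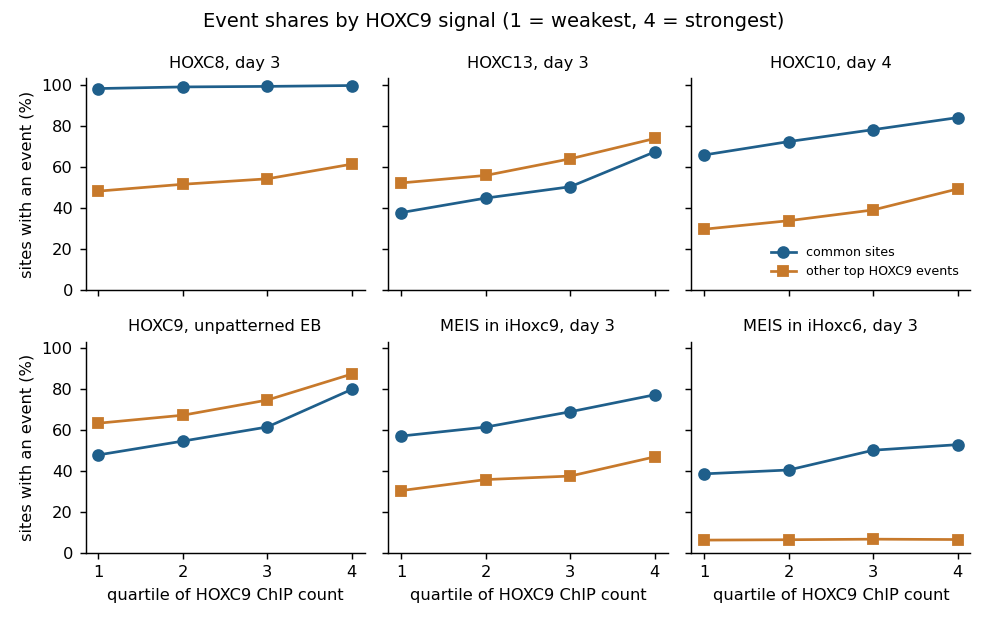
Share of sites with an event (y axis, percent) by quartile of the HOXC9 ChIP count among the top 10000 events (x axis, 1 is the weakest), for 6 lists. Blue circles are the common sites and orange squares the other top HOXC9 events; in the strongest quartile MEIS in iHoxc6 cells was at 52.7% of common sites and 6.46% of the others.

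Among the 6 sites with the highest MEIS ranks were some with composite elements and some that are simple repeats, but not every site held either. For that contrast 4 of them are printed. Capitals mark the same motifs and, in addition, the MEIS core TGACAG on either strand. The site nearest the TSS of Gpr84, at 5232 bp, was chr15:103305330-103305430 in an intron of the annotated gene Gm49482. The site nearest Megf9 was between genes at chr4:70603502-70603602. The sites in introns of Bbx and of Foxp1, the gene of a forkhead factor that marks limb-level motor columns, were chr16:50380298-50380398 and chr6:99190102-99190202.
Gpr84 site: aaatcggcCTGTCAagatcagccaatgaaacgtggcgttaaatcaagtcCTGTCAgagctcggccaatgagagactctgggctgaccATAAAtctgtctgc
Megf9 site: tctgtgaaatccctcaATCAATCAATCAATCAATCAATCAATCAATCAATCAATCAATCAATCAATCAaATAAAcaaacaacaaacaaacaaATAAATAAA
Bbx site: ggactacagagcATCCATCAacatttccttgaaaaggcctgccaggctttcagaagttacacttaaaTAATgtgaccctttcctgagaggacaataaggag
Foxp1 site: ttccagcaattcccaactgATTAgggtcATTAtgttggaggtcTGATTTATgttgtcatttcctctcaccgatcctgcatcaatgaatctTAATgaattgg

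The Gpr84 site had 2 MEIS cores and the highest MEIS count of the common sites in iHoxc9 cells. MEIS had 1658 reads there in the iHoxc6 line, 5598 in the iHoxc9 line and 2227 in the iHoxc10 line. Its HOXC8 count, 6018, was also the highest of the common sites, beside 3965 for HOXC9. The Megf9 site is a run of overlapping composite elements, 91.1% of it soft-masked as repeat, with 863, 1261 and 933 MEIS reads in the 3 lines. A similar repeat at the Usp29 site, 83.2% soft-masked, had 2322, 1300 and 1829 MEIS reads but 77.9 HOXC6, 337 HOXC9 and 107 HOXC10 reads. Neither repeat had a HOXC8 or HOXC13 event. At the Foxp1 site, which holds TGATTTAT, there were 187 HOXC6, 674 HOXC9 and 472 HOXC10 reads and 578, 1050 and 534 MEIS reads.

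The Hox cores at the common sites differed from those of the other top HOXC9 events. TTTAT was found within 50 bp of 2085 sites (54.7%), against 73.1% of the other events, 66.1% of all 10000 and 34.1% of equally long windows 1 kb from the sites. The difference from the other events was -18.3 points (-20.2 to -16.4). TAAT was present at 76.8% of common sites, 77.3% of the others, 77.1% of all and 52.3% of the flanking windows. Its difference was -0.504 points (-2.21 to 1.18) and was not called. Within quartiles of GC content, a comparison chosen once the data had been seen, the TAAT difference was 3.90 points (2.12 to 5.69) and was called, with the opposite sign, and the TTTAT difference -13.6 points (-15.5 to -11.6). The median GC content of these windows was 41.6% at the common sites and 39.6% at the others.

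The share of TTTAT was lower in both classes with HOXC6 than in those without. It was 57.03% at sites with HOXC6 and no HOXC10, from which the common sites differed by -2.29 points (-6.45 to 1.95, not called). It was 74.0% at sites with HOXC10 and no HOXC6 and 75.6% at sites with neither, from which they differed by -19.3 (-21.6 to -17.0) and -20.9 (-23.1 to -18.6) points. TTTAC, a core of HOX13 factors, was at 23.6% of the common sites, 32.9% of the others, 29.4% of all and 20.04% of the flanks, a difference of -9.39 points (-11.2 to -7.59). TAAT without TTTAT was found at 1350 common sites (35.4%) against 21.2% of the others, both cores at 1576 (41.4%) against 56.1%, TTTAT alone at 509 (13.4%) against 16.96%, and neither at 374 (9.82%) against 5.72%.

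Read counts were set beside the cores within the common sites, as a description. At the 1350 sites with TAAT alone the median HOXC8 count was 368 and the median HOXA9 count 346. At the 509 sites with TTTAT alone they were 260 and 441. At the 1576 sites with both they were 300.7 and 368, and at the 374 with neither 312 and 430, so the HOXA9 median without either core was near that with TTTAT alone. HOXC13 had an event at 43.7% of the sites with TAAT alone and 58.35% of those with TTTAT alone. It had one at 59.4% of the sites with both cores and 49.7% of those with neither. Seen the other way, TTTAT was at 61.4% of the common sites with HOXC13 and at 47.3% of those without, a difference of 14.04 points (10.9 to 17.2), and TTTAC at 28.02% and 18.6%, a difference of 9.47 points (6.79 to 12.1).

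Composite and MEIS motifs were more frequent at the common sites than at the other events as a whole. TGATNNAT was present at 729 sites (19.1%), against 15.6% of the others, 17% of all and 6.30% of the flanks, a difference of 3.54 points (2.01 to 5.09) that was 1.65 points (-0.0928 to 3.47) and no longer called when only HOXC6 and HOXC10 events with a log2 q-value under -33 counted. It was 1.97 points within 25 bp of the event and 6.15 points within 100 bp. Against sites with HOXC10 and no HOXC6, of which 18.6% held TGATNNAT, the difference was 0.512 points (-1.41 to 2.41, not called). Its most frequent form was TGATTTAT, at 230 sites (6.04%, against 5.35% of the others and 5.61% of all, not called), and TGATTAAT was at 64 (1.68%, 1.58% of all). The MEIS core TGACAG was at 13.4% of the common sites, 11.1% of the others, 11.9% of all and 6.49% of the flanks, a difference of 2.37 points (1.05 to 3.72). Both were more frequent where MEIS was present. TGATNNAT was at 27.4% of sites with MEIS in all 3 lines and 8.17% of sites with no MEIS, a difference of 19.2 points (16.3 to 22.0), and TGACAG at 18.5% and 7.30%, a difference of 11.2 points (8.64 to 13.8).

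The E-box CAGNTG, the element of bHLH factors such as OLIG2 and the neurogenins, was found at 1239 common sites (32.5%), 23.2% of the others, 26.8% of all and 20.1% of the flanks. This is 9.32 points higher than in the others (7.50 to 11.1). Within quartiles of GC content it was 6.32 points higher (4.42 to 8.22), and within 25 bp of the event 5.27 points higher. It was higher than in each of the 3 other classes, by 6.04 points (3.81 to 8.23) over sites with HOXC10 and no HOXC6 and by 12.5 points (10.3 to 14.5) over sites with neither. Within the common sites it was at 27.9% of those with a HOXC13 event and 37.7% of those without, a difference of -9.74 points (-12.7 to -6.76). The short motif CCCTC, listed for the insulator protein CTCF as a contrast to the Hox motifs, was at 16.96% of the common sites and 14.04% of the others, with 15.2% of all and 19.5% of the flanks. It was thus less frequent at the common sites than in the flanks, and is not read as a mark of CTCF binding. Its difference of 2.92 points (1.46 to 4.41) was called too, and is near those of TGATNNAT and TGACAG.

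**Figure D4:**
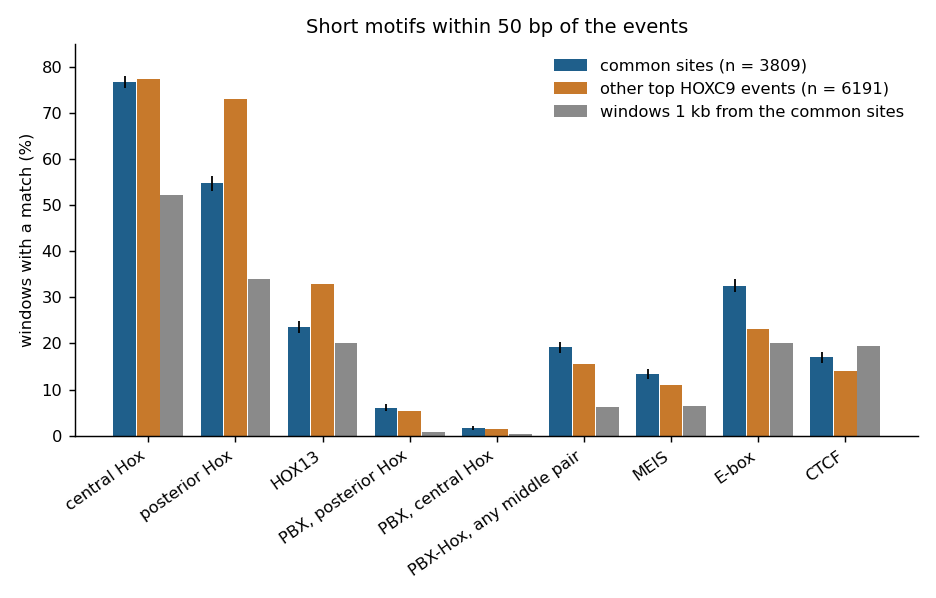
Share of windows (50 bp to each side of the event) with each motif on either strand (y axis, percent) for the common sites (blue, with 95% Wilson intervals), the other top HOXC9 events (orange) and windows 1 kb to either side of the common sites (grey). The posterior Hox core is lower at the common sites (54.7% against 73.1%) and the E-box higher (32.5% against 23.2%).

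Most common sites lay far from promoters. A TSS was within 1 kb of 191 sites (5.01%), against 3.73% of the other top HOXC9 events and 4.22% of all, a difference of 1.28 points (0.463 to 2.15), or 4.30 points within 5 kb. The median distance to a TSS was 19496 bp, and 355 sites were over 100 kb from any. By their position 1917 sites (50.3%) were in introns, 1741 (45.7%) between genes and 151 (3.96%) in exons. Soft-masked repeat sequence held 5.25% of the sites and 8.08% of the other events.

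Some sites lay close together, which was not compared with other events. Another common site was within 10 kb of 1119 (29.4%) and within 1 kb of 795 (20.9%), so neighbouring events are not independent sites. Keeping 1 event per 1 kb, also chosen once the data had been seen, left 3303. Runs of 5 or more sites with gaps of at most 20 kb numbered 14 and held 87 sites. The longest run by count was 12 sites over 43636 bp in the HoxA cluster on chromosome 6. The next were 9 sites in the HoxC cluster, 8 near Paqr3 on chromosome 5, and 6 each in Auts2, in the HoxB cluster and in 658 bp beside Gm11487 on chromosome 4. A run of 5 lay within 100 kb of Neurog2, which encodes a proneural bHLH factor.

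By nearest protein-coding TSS the sites fell to 2009 genes, of which 1200 had 1 site and 135 had 5 or more. Auts2, a gene expressed in developing neurons, had the most, with 24 of its 45 top HOXC9 events. Zfp608, a zinc finger gene, followed with 18 of 40 and Robo2, a Slit receptor gene of axon guidance, with 16 of 37. Of all top HOXC9 events 38.1% were common sites, and genes were picked by number of sites, so these counts are descriptions. Of the 16 genes with 10 or more sites, 15 are named. Robo1 had 11 of 29, the orphan nuclear receptor genes Nr2f1 13 of 26 and Nr2f2 11 of 16, and the MEIS gene Meis1 11 of 18. The RNA-binding protein genes Celf2 and Nova1 had 12 of 20 and 10 of 20, and Erbb4 had 11 of 20. Zfp703 had 10 of 17, Tle4 10 of 19, Gramd3 10 of 22, Ptprd 10 of 27 and Ebf1 10 of 20. Many of these sites were remote, with the nearest at 95039 bp from a Meis1 TSS, at 249954 bp for Nr2f2 and at 12545 bp for Nr2f1. All 10 sites at Zfp703 had a HOXC13 event, an EB HOXC9 event and all 3 Hox events at day 4, and 9 had MEIS in all 3 lines. At Nr2f2 1 of the 11 had MEIS in all 3 lines.

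Sites were then counted near the genes of 13 lists. Within 100 kb of a TSS, 3146 of 21728 protein-coding genes (14.5%) had a common site and 27.3% had any top HOXC9 event. A top HOXC9 event of any class was near 100% of Hox cluster, 84.2% of ventral progenitor and 66.7% of motor column and pool genes. It was near 50% of motor neuron identity, 57.9% of axon guidance and 58.3% of type II cadherin genes. It was near 63.6% of TALE cofactor, 70.6% of retinoic acid pathway and 64.3% of Onecut, Ebf and Pou genes. The shares were 53.9% for interneuron identity, 41.2% for neurogenesis bHLH and Notch and 30.8% for pluripotency genes. These lists thus also exceeded all genes in top HOXC9 events generally. Of genes with such an event, 3146 of 5932 had a common site, as had 14 of 16 ventral progenitor and 3 of 6 motor neuron identity genes. Whether the list shares are particular to the common sites was not tested. The hepatocyte share was 23.1%. Among Hox cluster genes 38 of 39 had a common site, with a median of 7 sites per gene where the median of all genes was 0, and these genes share 38 sites. By nearest TSS in place of 100 kb, 28.2% of them had one, against 9.25% of all genes. Hoxa2, Hoxa3 and Hoxa4 each had 15 within reach, 12 of them with a HOXC13 event. Neighbouring genes count the same sites, so the members of this list are not independent. Of 19 ventral progenitor genes, which set up the progenitor domains, 14 had a site, among them Nkx6-1 with 5, Pax6 with 4, Dbx1 with 4 and Olig1 with 3, and within 50 kb the share fell to 42.1%, against 8.40% of all genes. Motor column and pool genes had one in 7 of 12, led by Foxp1 with 9 sites, of which 6 had MEIS in all 3 lines, and then Nkx6-1, Etv4 with 4 and Aldh1a2, which makes retinoic acid, with 3.

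Motor neuron identity genes had a site at 3 of 12 (25%), or 50% by nearest TSS. They were Lhx3 with 5 sites, Ret with 1 and Isl2 with 1. Retinoic acid pathway genes had one in 9 of 17, with 6 at Rarb, 4 at the retinol transporter gene Stra6, 3 at Aldh1a2 and 2 at Rxrg. TALE cofactor genes, which encode PBX, MEIS and PREP proteins, had one in 5 of 11, led by Pbx3 with 5, Meis2 with 4 and Pknox2 with 3. The site nearest Pbx3 was 107 bp from a TSS and that nearest Meis2 454 bp.

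Of 14 Onecut, Ebf and Pou neuronal factors 8 had a site, with 7 at Ebf1, 3 each at Nhlh2 and Pou3f3 and 2 at Ebf2. Interneuron identity genes had one in 6 of 13, with 7 at Evx2, which adjoins the HoxD cluster, 5 at Foxp2 and 1 at Lhx5. Among 17 neurogenesis bHLH and Notch genes 6 had one, with 3 at Neurod1, 2 each at the Notch ligand gene Dll1 and at Neurod4, and 1 at Notch1. Axon guidance genes had one in 14 of 38, with 5 at Robo2, 5 at the semaphorin receptor gene Nrp2, 4 at Slit2 and 3 at Epha7, and type II cadherin genes in 4 of 12, with 1 each at Cdh22, Cdh7, Cdh18 and Cdh6 (75% of the cadherin list by nearest TSS). Pluripotency genes had one in 4 of 13, with 3 at Esrrb and 1 each at Zfp42, Sall4 and Fgf4. Hepatocyte genes, listed for contrast, had one in 2 of 13 (15.4%), Ttr with 2 and Apob with 1. The binding lists say nothing of expression, and a gene within 100 kb is not shown to be a target.

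**Figure D5:**
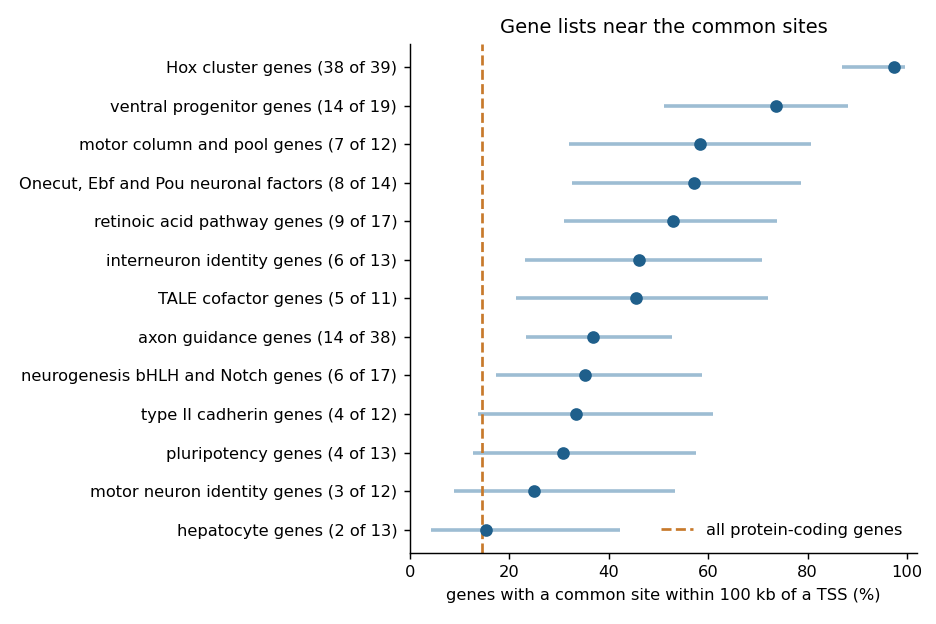
Share of the genes in 13 lists with a common site within 100 kb of a TSS (x axis, percent) with 95% Wilson intervals, the counts being beside the list names on the y axis. The dashed line is the share over all protein-coding genes (14.5%), close to the hepatocyte list (15.4%) and far below the Hox cluster genes (97.4%).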

How the data were processed

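ChIP-seq of induced Hox factors and MEIS was measured in mouse embryoid bodies. The authors aligned reads to mm10 with Bowtie 1.0.1, keeping reads with 1 best hit, and called events with MultiGPS on the pooled libraries of a group at a q-value under 0.001. The submitters' processing notes also name Picard 2.8.2 and edgeR 3.22.5. Each deposited event list holds, per event, estimated counts of ChIP reads and of control reads, a log2 ratio of these, and a q-value on a log2 scale, treated as a score here. Columns of the authors' comparisons between conditions (log2 fold changes and q-values) were not used, so a common site may differ in strength between factors. The deposited position files, which repeat the events, were not used either.

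Events were matched by distance on chromosomes 1 to 19 and X in python 3.11.15 (numpy 2.4.6, pandas 2.3.3), with ties in rank broken by chromosome and position. Deposited sequences were tested for the top 20000 HOXC9 events by read count or by q-value. All 19506 tested were found on GRCm38 within 150 bp of their event. TSSs are from GENCODE M21, and soft-masking is that of the reference sequence. Motifs were searched on both strands within 50 bp. Alternatives varied the matching distance, the number and ranking of top events, list length, motif window and gene distance; keeping 1 event per 1 kb and comparing within GC quartiles were chosen after seeing the data. The matching, motif search and intervals were tested on simulated data. No test between groups was run, since the lists used here pool the libraries and give no value per replicate, and the columns of the authors' own tests were set aside.

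Sites named are the 8 with the smallest summed rank of ChIP count in the HOXC6, HOXC9 and HOXC10 lists and the 6 with the smallest summed MEIS rank, 1 per 10 kb, without chromosome 18. Genes named are the 15 nearest to most sites and up to 4 per list with the most sites. Sites, lists and motifs were chosen with earlier results of these data known. Some sites and genes that these rules pick are not reported here.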

Additional observations from a re-analysis of the deposited data

Results flagged for a closer look

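The day 4 PBX lists, which enter no comparison above, held events at some common sites. In iHoxc9 cells 19 common sites (0.499%) had a PBX event within 100 bp, against 9 of the other top HOXC9 events (0.145%), and in iHoxc10 cells 7 (0.184%), against 1 (0.0162%). Each list rests on 1 library, with signal fractions of 0.009 and 0.008 and 1164 and 848 events. Of the 23 common sites with PBX in either line, 22 had a MEIS event in iHoxc9 cells, as had 68.0% of all common sites, and 4 had TGATNNAT within 50 bp, near the share over all common sites (19.1%). Only the 4 day 4 HOXC10 libraries formed a group large enough to look for a library apart from the others, and their signal fractions (0.047 to 0.056) showed none.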

How the results depend on the processing

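Of 83 recomputed values of the 12 share differences, 77 kept their direction and their side of 0. The number of common sites was 2349 in the top 5000 HOXC9 events, 5750 in the top 20000, and 2311 with a log2 q-value under -33 asked of the HOXC6 and HOXC10 events. It stayed between 2550 and 4178 under the other alternatives. The day 4 HOXC9 difference was 0.307 points with a distance of 200 bp, 0.0389 within quartiles of HOXC9 read count and 0.217 with 1 event per 1 kb, and was then not called. The TGATNNAT difference was 1.65 points under the stricter q-value, also not called. The TAAT difference was -1.33 points and called in windows of 100 bp, and it turned to 3.90 points within quartiles of GC content, which itself counts the bases of the motif. An EB HOXC9 list of 10000 events brought its difference to -1.56 points. By nearest TSS in place of 100 kb, Hox cluster genes with a site fell to 28.2%, type II cadherin genes rose to 75%, and all protein-coding genes came to 9.25%. Within 50 kb, ventral progenitor genes came to 42.1% and all protein-coding genes to 8.40%. The cause of these changes was not tested.

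No paired analysis was possible because the event lists pool the libraries of a group and hold no value per replicate. For the same reason no library was left out. Intervals count sites, and sites within 1 kb of each other are not independent. Presence of an event depends on depth, signal fraction and control library, which differ between lists, so a missing event is one not called at this depth.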
